A study of Drosophila melanogaster with 4 samples.

Results

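The regions described here are the HP1b clusters on the mapped heterochromatin scaffolds of Drosophila melanogaster, which are 2LHet, 2RHet, 3LHet, 3RHet, XHet and YHet. They were chosen by the name of the sequence alone, as every enriched cluster of the authors' combined set on a sequence whose name ends in Het, and they number 617 of 8426 clusters. The same scaffolds carry 240 clusters in the list of replicate 1 and 178 in that of replicate 2, which serve as replicate support. The data came from HP1b chromatin immunoprecipitation with sequencing (ChIP-seq), on whole third-instar larvae of the Oregon-R strain (Oregon-R-modENCODE), whose genotype is wild type. All libraries share that strain, stage and genotype, and whole larvae mix many tissues. The samples are 2 ChIP libraries and 2 Input libraries, and cluster lists of the ChIP libraries and of their combined set were analysed here. The labels do not say if separate collections of larvae were used for the ChIP libraries, so their spread may be technical.

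HP1b is a member of the heterochromatin protein 1 family, small chromosomal proteins with a chromodomain, which can bind methylated histone H3, and a chromoshadow domain, through which they pair with each other and with partner proteins. The founding member, HP1a, concentrates in the heterochromatin around centromeres, whereas HP1b is known in fly cells from both heterochromatin and euchromatin. Heterochromatin around the centromeres is rich in transposons and satellite repeats and holds few genes. The Het scaffolds are assembled parts of heterochromatin, each assigned to a chromosome or chromosome arm, but need not hold all of its assembled sequence. They belong to FlyBase release 5 of the genome, on which all coordinates below are given. Short reads from repeats cannot be placed uniquely, and which bases of these scaffolds were mappable is not given in the files.

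HP1b clusters occurred on all 6 scaffolds in both libraries. The mean share of bases covered was highest on 3LHet and lowest on YHet. Clusters covered 8.30% of the 2.56 Mb of 3LHet in replicate 1, against 6.56% in replicate 2 (mean 7.43% ± 1.23, SD, n = 2). On 2LHet (0.369 Mb) they covered 6.90% and 6.38%, a mean of 6.64% ± 0.363. On 2RHet (3.29 Mb) the values were 6.76% and 5.25%, with a mean of 6.01% ± 1.07. These ranges overlap, so the order of 3LHet, 2LHet and 2RHet was not settled by the spread between libraries. XHet (0.204 Mb) had 5.19% in replicate 1 and 6.41% in replicate 2, which overlaps the range of 2RHet. 3RHet (2.52 Mb) had 5.13% and 3.53%, a mean of 4.33% ± 1.13, so its higher value lay just under the lower value of XHet. YHet (0.347 Mb) had 0.574% and 0.977%, below every value of the other scaffolds. In the combined set the shares were 20.4% on 3LHet, 18.0% on 2LHet, 14.3% on 2RHet, 13.4% on XHet, 11.3% on 3RHet and 2.75% on YHet, the same order as that of the replicate means. Replicate 2 covered fewer bases than replicate 1 on the 4 autosomal scaffolds, from 0.688 times on 3RHet to 0.926 times on 2LHet. It covered more on XHet (1.24 times) and YHet (1.70 times), where each library held 6 clusters or fewer. On the long arms (2L and 2R, 3L and 3R, and the X arm) replicate 2 covered 1.34 times as much as replicate 1.

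**Figure D1:**
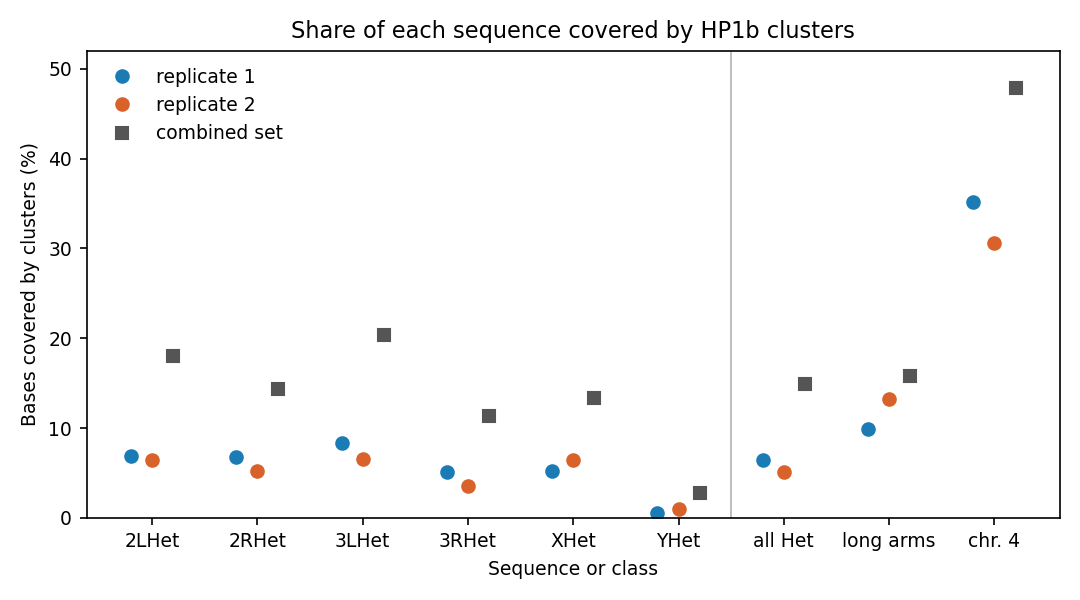
Percentage of bases covered by HP1b clusters (y axis) on each Het scaffold, on all Het scaffolds together, on the long arms and on chromosome 4 (x axis), with 1 point for each replicate and a square for the authors' combined set. The scaffolds lie below chromosome 4 in every list, and YHet is the lowest.

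Set against the long arms, the Het scaffolds together had a lower covered share in both libraries, with a ratio of 0.656 in replicate 1 and 0.381 in replicate 2 (mean 0.518 ± 0.194, SD, n = 2). The direction was the same in 2 of 2 libraries, and with 2 libraries the exact sign test, taken two-sided, gives p = 0.5, the smallest it allows. In the combined set the ratio was 0.943. With the centromere-proximal 2 Mb of each long arm left out, the mean ratio of the replicates was 0.523. Covered shares are of the full length of each sequence, so any assembly gaps or unmappable bases in it count as uncovered. Sequencing depth is unknown, since the files hold clusters and not reads.

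Clusters were unevenly spread along the scaffolds, and both libraries had them in the same stretches. Of the 90 full windows of 100 kb on the Het scaffolds, 25 held no cluster base in replicate 1 and 33 held none in replicate 2, and 19 were empty in both. On the long arms 7.91% of 1189 such windows were empty in both, against 21.1% on the Het scaffolds. The densest 18 Het windows held 60.4% of the cluster bases in full windows in replicate 1 and 64.0% in replicate 2, and 14 of the 18 were the same windows in both lists. The corresponding densest windows of the long arms, also the top 20.0% of them, held 44.9% and 42.2%, and 194 of the 238 were the same in both lists. Across the 90 windows the covered shares of the libraries correlated with a Spearman rho of 0.838, given as a description, since neighbouring windows share domains and both libraries share the mappable sequence. Over the 1189 long-arm windows rho was 0.939, so agreement between libraries was not particular to the Het scaffolds. Within scaffolds rho was 0.733 over 32 windows of 2RHet, 0.889 over 25 of 3LHet and 0.856 over 25 of 3RHet.

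On 2RHet the clusters lay in groups near both ends and in the middle, separated by sparse sequence. The densest window of all the scaffolds in replicate 1 and in the combined set was 2RHet 3100001 to 3200000, which replicate 1 covered to 38.8%, replicate 2 to 20.6% and the combined set to 51.1%. The window 1300001 to 1400000 had 29.9%, 15.4% and 47.2%. Nearer the start of the scaffold, 300001 to 400000 had 20.8% and 23.1% in the replicates, the latter being the highest of any Het window in replicate 2, and 400001 to 500000 had 22.6% and 14.7%. The window 2800001 to 2900000 had 21.0% and 20.6%. Between these groups, the stretch from 1973257 to 2302132 held no replicate 1 cluster and 2 replicate 2 clusters, with a covered share of 0% and 1.25%. The longest stretch of 2RHet with no cluster in any list ran from 1097047 to 1284235 (187 kb). In all, stretches of at least 50 kb with no cluster in any list made up 35.4% of 2RHet.

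On 3RHet the clusters were concentrated in the later part of the scaffold. Its first 503501 bp held no cluster in either replicate and 7 in the combined set. The window 1900001 to 2000000 was covered to 24.5% by replicate 1, to 18.2% by replicate 2 and to 43.2% by the combined set, and 1800001 to 1900000 had 22.8%, 19.5% and 47.4%. Past 1258753 bp, the middle of the scaffold, replicate 1 had 42 of its 53 clusters and replicate 2 had 32 of its 35. The longest stretch with no cluster in any list ran from 287823 to 554657 (267 kb), and empty stretches of at least 50 kb made up 41.7% of the scaffold.

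3LHet was the most evenly filled of the 3 large scaffolds. Only 1 of its 25 full windows was empty in both replicates, against 7 of 32 on 2RHet and 9 of 25 on 3RHet. Its densest windows in replicate 1 were 2400001 to 2500000, with 21.9% and 15.8% in the replicates, and 2200001 to 2300000, with 21.9% and 20.4%. Of 10 equal parts of the scaffold, the least covered in both libraries was 1788844 to 2044392, where replicate 1 clusters covered 1.16% and replicate 2 clusters 0%. The longest stretch free of clusters in every list was 2280815 to 2380138 (99.3 kb). Empty stretches of at least 50 kb made up 15.5% of 3LHet.

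**Figure D2:**
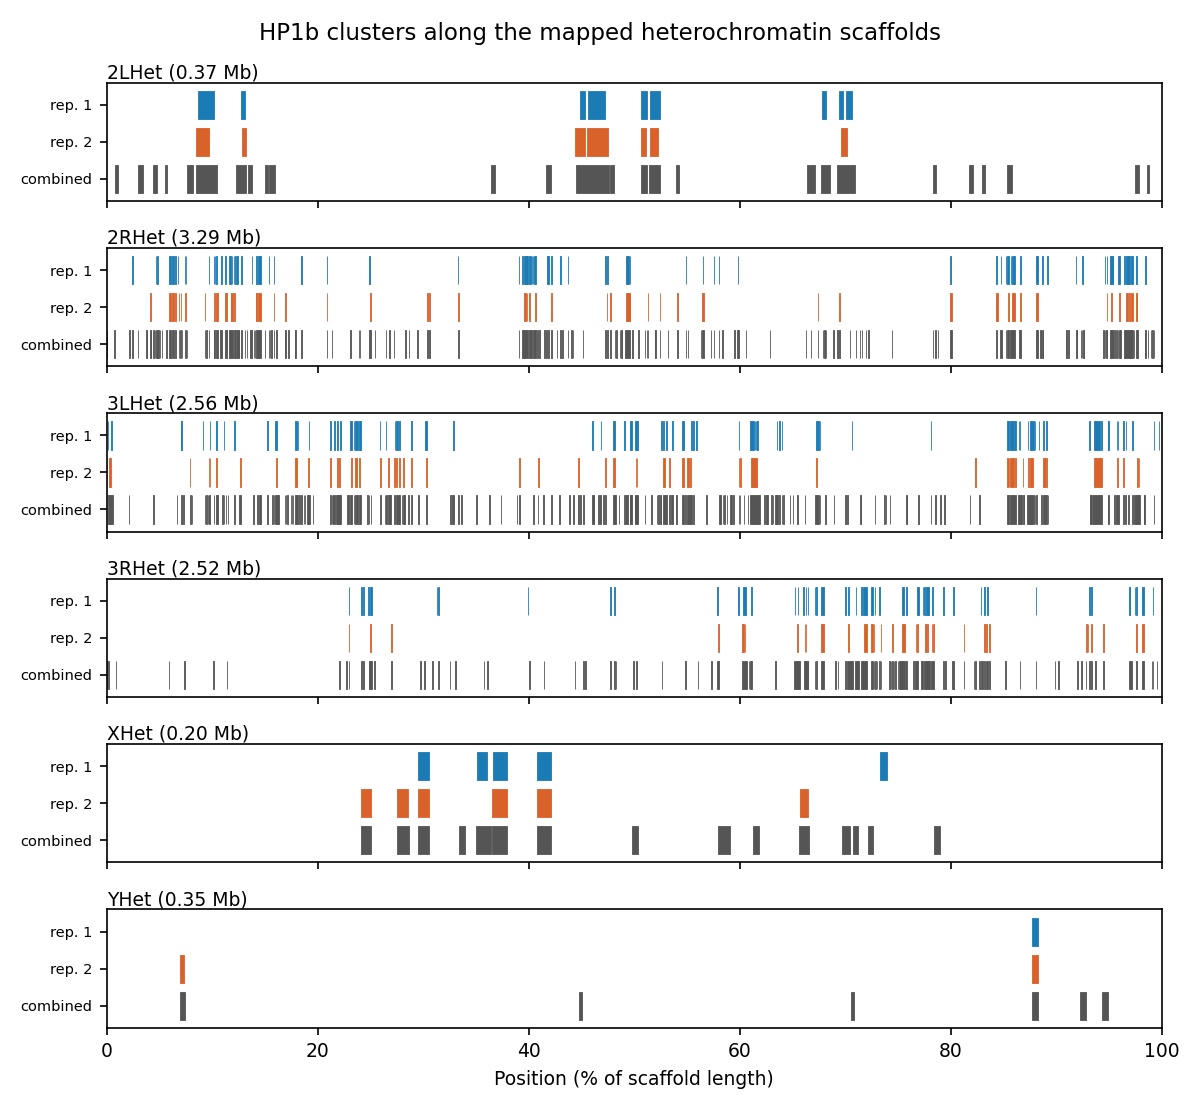
Position of each HP1b cluster on the 6 Het scaffolds, as a percentage of the scaffold's length (x axis), in replicate 1, replicate 2 and the authors' combined set (rows). Both replicates leave the first 503501 bp of 3RHet without a cluster, and on 2RHet they share the groups near both ends and around 40% of the length.

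2LHet, though short, carried clusters in 3 groups that both libraries shared. The first was around 31314 to 37582, a combined cluster of 6.27 kb with a combined score of 1.51 and scores of 1.35 and 2.02 in replicates 1 and 2. The score is the authors' value for each cluster. It was taken here to be on a log2 scale, inferred from exact ties, and the labels do not state how it was made. The second group held the widest cluster of 2LHet, at 163992 to 175738 (11.7 kb), where replicate 1 clusters covered 67.5% and replicate 2 clusters covered 90.3%. The third lay between 250006 and 261560. All 7 replicate 2 clusters of 2LHet were touched by a replicate 1 cluster, and 8 of 9 replicate 1 clusters by a replicate 2 cluster, with touch meaning an overlap of at least 1 bp. No list had a cluster between 58913 and 134443, which is 20.5% of the scaffold.

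XHet held 15 combined clusters between 49282 and 161124. Of these, 3 were touched by both replicates. The cluster at 83264 to 85918 (2.65 kb) had a combined score of 2.18, with 2.06 and 2.34 in replicates 1 and 2, and it was covered to 99.7% and 96.3%. The cluster at 74516 to 77452 (2.94 kb, the widest of XHet) scored 1.37 in the combined set and 1.27 and 1.52 in the replicates. The cluster at 60184 to 62422 scored 0.71, with 0.43 and 0.97 in the replicates. Replicate 2 alone touched the clusters at 49282 to 51218, 56242 to 58412 and 133944 to 135886, and replicate 1 alone touched that at 71526 to 74400. The other 8 were touched by neither. They began at 68134, 101632, 118304, 125136, 142292, 144298, 147226 and 160092, measured 1001 to 2373 bp and scored 0.38 to 0.69. The clusters touched by a replicate thus ended by 85918, apart from the one at 133944. Replicate 1 also had a cluster at 149596 to 150977 that neither other list held.

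YHet held 6 combined clusters, and 1 of them was found in both replicates. This was 304294 to 306312 (2.02 kb), whose combined score was 1.35 and whose replicate scores were 1.14 and 1.48, with 98.7% and 99.6% of it covered. Replicate 2 alone touched 24204 to 25838, with a score of 0.92 in the combined set and 1.30 in replicate 2. The other 4, at 155444 to 156490, 244958 to 245958, 320090 to 322040 and 327510 to 329388, were touched by neither and scored 2.88, 1.81, 0.82 and 0.74. Stretches of at least 50 kb with no cluster in any list made up 79.6% of YHet. The labels do not give the sex of the larvae.

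Clusters on the Het scaffolds were narrower at the median than those on the long arms, but wide clusters carried more of their bases. The median Het cluster measured 1862 bp in replicate 1, where the median of the long arms was 2189 bp, and 2006 bp in replicate 2, where it was 2280 bp. The ratio of the medians was 0.850 and 0.880 (mean 0.865 ± 0.0208, SD, n = 2), below 1 in 2 of 2 libraries. Among the scaffolds with more than 10 clusters in each replicate, medians lay between 1800 and 1949 bp in replicate 1 and between 1902 and 2016 bp in replicate 2. At the other end, 25 of 240 replicate 1 clusters (10.4%) and 16 of 178 replicate 2 clusters (8.99%) measured at least 5000 bp, against 3.35% and 4.86% on the long arms. These wide clusters held 28.5% and 26.6% of the cluster bases of the Het scaffolds, against 8.73% and 12.0% on the long arms and 62.3% and 52.9% on chromosome 4. In the combined set 48 of 617 Het clusters (7.78%) were that wide, against 6.17% of all 8426 clusters.

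The widest combined clusters were touched by clusters of both libraries, of which the combined set is not independent. They were 3LHet 2186786 to 2202718 (15.9 kb), 3LHet 2390172 to 2406078 (15.9 kb) and 2RHet 1617120 to 1632746 (15.6 kb). Replicate 1 clusters covered 67.1%, 86.6% and 73.9% of these, and replicate 2 clusters covered 76.7%, 89.8% and 89.3%. The widest cluster of 3RHet, at 1804744 to 1814168 (9.43 kb), was covered to 95.2% and 74.0%. The first of these was broken into 4 clusters in replicate 1 and 2 in replicate 2, and that on 2RHet into 2 and 4, while that on 3RHet was a single cluster in each library. Their combined scores were 1.00, 1.15, 1.52 and 1.28.

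Neighbouring clusters were farther apart on the Het scaffolds than on the long arms in both replicates, but not in the combined set. The median gap was 9.31 kb in replicate 1 and 12.9 kb in replicate 2, against 8.12 kb and 6.36 kb on the long arms and 2.21 kb and 2.37 kb on chromosome 4. The ratio to the long arms was 1.15 and 2.02, a mean of 1.58 ± 0.619 (SD, n = 2), while in the combined set it was 0.896, with medians of 4.56 kb and 5.08 kb. Cluster density moved with it, at 25.9 and 19.2 clusters per Mb in the replicates and 66.5 in the combined set, against 40.2, 50.3 and 62.0 on the long arms. The lists of the Het scaffolds held both short and long gaps. Gaps of at most 1000 bp made up 12.0% of gaps in replicate 1 and 14.5% in replicate 2, close to the 10.4% and 13.1% of the long arms. In the combined set such gaps made up 20.6%, against 16.2% on the long arms. Gaps of at least 50 kb made up 18.4% and 24.4% in the replicates, against 12.0% and 8.49% on the long arms.

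**Figure D3:**
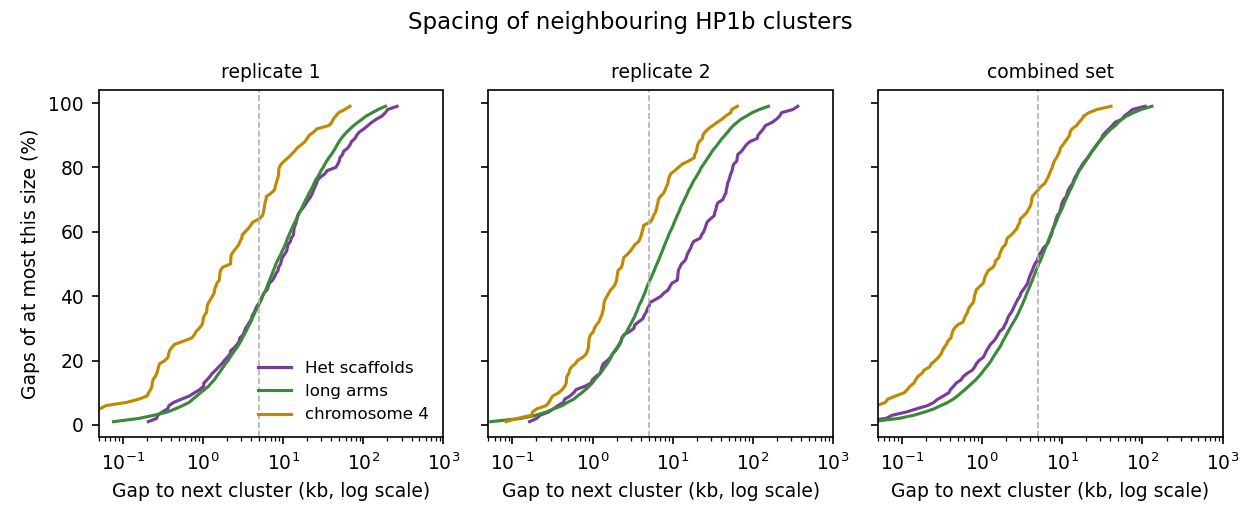
Cumulative percentage of gaps between neighbouring clusters (y axis) by gap size in kb on a log axis (x axis), for the Het scaffolds, the long arms and chromosome 4 in each list, with the domain limit of 5 kb as a dashed line. In replicate 2 the Het curve lies right of the long arms above about 5 kb. In the combined set it lies left of them at short gaps and runs close to them at longer ones.

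Grouping was described by domains, defined as runs of at least 3 clusters with gaps of at most 5000 bp. On the Het scaffolds 71 of 240 replicate 1 clusters (29.6%) and 58 of 178 replicate 2 clusters (32.6%) lay in domains, 17 domains in each library. Over all sequences the shares were 33.5% of replicate 1 clusters and 42.3% of replicate 2 clusters. These shares depend on the gap allowed. With gaps of at most 2000 bp they were 12.5% and 15.7% on the Het scaffolds, against 11.5% and 16.4% on the long arms. The mean Het share of 31.1% was 14.1% at that gap and 3.84% in the higher-scoring 50% of each list. Of the 17 domains of each library, 12 overlapped a domain of the other. All 17 replicate 1 domains and 16 of the 17 replicate 2 domains were touched by at least 1 cluster of the other library. In replicate 1 the longest measured 44.4 kb and the median 16.3 kb, and in replicate 2 these were 23.5 kb and 14.4 kb. Chromosome 4, by comparison, had 71.0% and 77.8% of its clusters in domains.

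The combined set had 69 domains on the Het scaffolds, with 323 of 617 clusters (52.4%), against 50.0% over all 8426 clusters. There were 31 on 3LHet, 19 on 2RHet, 13 on 3RHet, 4 on 2LHet and 2 on XHet, and none on YHet. They spanned 22.6% of 3LHet, 13.8% of 2LHet, 11.5% of 2RHet and 9.56% of 3RHet. Clusters of both libraries lay within 44 of the 69 domains, clusters of 1 library in 14 and of neither in 11, and 12 overlapped a domain of each replicate. All 13 domains of 3RHet held a cluster of at least 1 replicate, as did 25 of 31 on 3LHet and 16 of 19 on 2RHet.

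The 10 longest combined domains lay on 2RHet, 3LHet and 3RHet and measured 30.1 to 48.3 kb. The longest was 2RHet 1294724 to 1343058 (48.3 kb), a run of 9 clusters that filled 84.3% of it. Replicate 1 had 9 clusters there, covering 58.2%, and replicate 2 had 5, covering 27.6%. The next on 2RHet, 3171606 to 3214012 (42.4 kb), was covered to 53.8% and 44.6% by 5 clusters in each replicate. It and 3127606 to 3162458 (34.9 kb) lie in or reach into the window 3100001 to 3200000. The fourth on 2RHet, 382702 to 413290 (30.6 kb), was covered to 42.6% and 30.2%. On 3LHet the domains were 445908 to 491540 (45.6 kb), 1332428 to 1371738 (39.3 kb), 581154 to 614962 (33.8 kb) and 2380760 to 2410908 (30.1 kb). The last of these was the most completely filled of the 10, at 85.2% in the combined set and 60.9% and 60.1% in the replicates. The first, a run of 11 clusters, was filled to 49.7% and covered to 19.0% and 13.5%, and 8 of its clusters were touched by neither replicate. On 3RHet, 1867828 to 1909838 (42.0 kb) was a run of 12 clusters of which 9 were touched by neither, covered to 18.0% and 20.3%. Its neighbour 1943454 to 1974436 (31.0 kb) had 6 clusters, of which 1 was touched by neither, covered to 47.2% and 29.2%. Long domains thus included both densely supported and mostly unsupported runs.

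A minority of combined Het clusters had support from both libraries. Both replicates touched 98 of 617 (15.9%, 95% Wilson interval 13.2 to 19.0), against 51.3% over all 8426 clusters. Replicate 1 alone touched 113, replicate 2 alone 50 and neither 356 (57.7%, interval 53.8 to 61.5), against 21.6% touched by neither over all clusters. The intervals cover counting error only, and neighbouring clusters are not independent. By scaffold, both replicates touched 33 of 203 on 2RHet (16.3%), 37 of 234 on 3LHet (15.8%), 18 of 132 on 3RHet (13.6%) and 6 of 27 on 2LHet (22.2%), with intervals that overlap one another. The 98 clusters with support from both libraries carried 37.7% of the combined cluster bases on the Het scaffolds, and the 356 with none carried 36.7%. On the long arms these shares were 70.7% and 8.69%. On U, a sequence counted with neither the Het scaffolds nor the long arms, they were 20.8% and 51.0%. There both replicates touched 23 of 281 combined clusters (8.19%) and neither touched 189 (67.3%), so low support was not particular to the Het scaffolds.

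Wide clusters had support far more often than narrow ones. An overlap of 1 bp counts as touch, and a wider cluster can meet that at more positions. Of the 48 Het clusters wider than 5000 bp, both replicates touched 45 (93.8%, 95% Wilson interval 83.2 to 97.9). The exceptions were 3LHet 1405038 to 1410672, touched by replicate 2 alone, 3RHet 1640750 to 1646346, touched by replicate 1 alone, and 3LHet 581154 to 586398, touched by neither. Both replicates touched 28 of 58 clusters of 3001 to 5000 bp (48.3%), 23 of 92 of 2001 to 3000 bp (25.0%) and 2 of 209 of 1301 to 2000 bp (0.957%). Among clusters of up to 1300 bp it was 0 of 210, where 3 counts of the total would be 1.43% and the 95% Wilson upper limit is 1.80%. The narrowest cluster of either replicate measured 1301 bp, whereas combined clusters go down to 1001 bp.

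At matched width the Het clusters still had less support than those on the long arms. Both replicates touched 80.7% of long-arm clusters of 2001 to 3000 bp (95% Wilson interval 79.2 to 82.1), against 25.0% on the Het scaffolds (17.3 to 34.7). For 3001 to 5000 bp the shares were 91.3% (89.6 to 92.7) and 48.3% (35.9 to 60.8), and for 1301 to 2000 bp 12.0% (10.6 to 13.5) and 0.957% (0.263 to 3.42). Above 5000 bp they were 98.8% (97.3 to 99.5) and 93.8%, and these intervals overlap. Chromosome 4 lay between, at 40.0% for 2001 to 3000 bp (23.4 to 59.3) and 60.0% for 3001 to 5000 bp (31.3 to 83.2), with intervals that overlap those of the Het scaffolds.

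**Figure D4:**
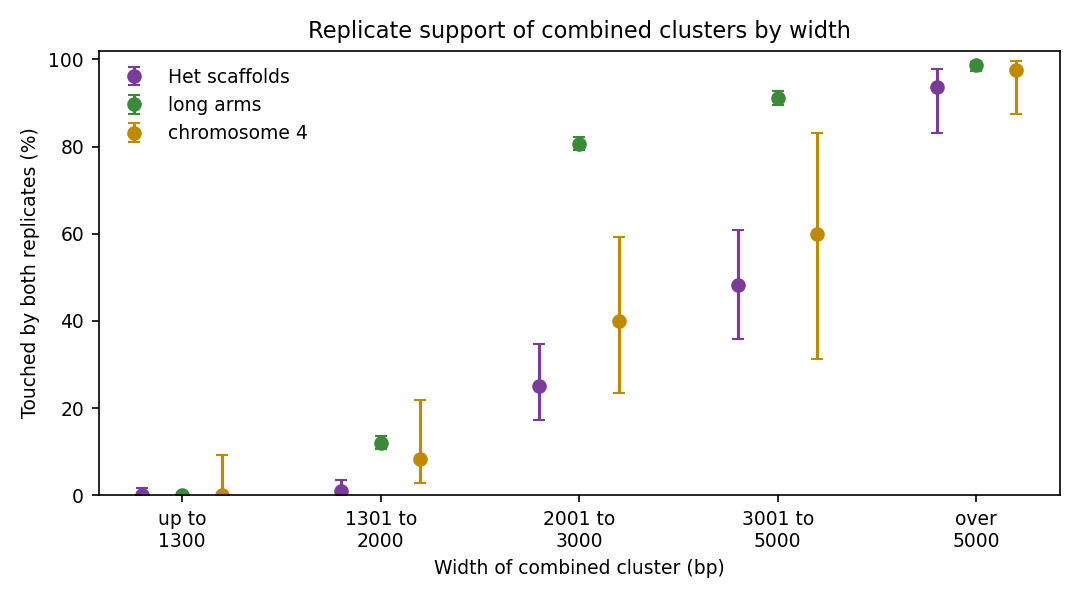
Percentage of combined clusters touched by both replicates (y axis) by width in bp (x axis), for the Het scaffolds, the long arms and chromosome 4, with 95% Wilson intervals as bars. Between 2001 and 3000 bp the Het scaffolds stand at 25.0% and the long arms at 80.7%, while above 5000 bp they stand at 93.8% and 98.8%.

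Clusters in domains had support from both libraries more often than those outside. Both replicates touched 66 of 323 Het clusters in domains (20.4%, 95% Wilson interval 16.4 to 25.2) and 32 of 294 outside (10.9%, 7.82 to 15.0), a difference of 9.55 percentage points (Newcombe interval 3.81 to 15.2). Width moved with it, with a median of 1831 bp inside and 1438 bp outside. Within width classes the direction was not kept. It was 10 of 56 inside and 13 of 36 outside for 2001 to 3000 bp, 20 of 42 and 8 of 16 for 3001 to 5000 bp, and 36 of 39 and 9 of 9 above 5000 bp. When combined clusters under 1301 bp, the narrowest width in the replicates, were left out, the difference was 7.88 points with an interval of -0.487 to 16.3.

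Seen from the replicates, agreement on the Het scaffolds was lower for replicate 1 than over the genome and close to it for replicate 2. A replicate 2 cluster touched 116 of 240 replicate 1 clusters (48.3%), against 87.8% over all replicate 1 clusters, and a replicate 1 cluster touched 120 of 178 replicate 2 clusters (67.4%), against 70.7%. Such shares depend on how many clusters the other list holds. Replicate 2 had fewer than replicate 1 on the Het scaffolds (178 against 240) but more over all sequences (6337 against 5191). By scaffold the replicate 1 share ran from 34.0% on 3RHet (18 of 53) to 50.0% on both 2RHet and 3LHet and 88.9% on 2LHet (8 of 9). The replicate 2 share was 57.1% on 3RHet, 67.2% on 3LHet and 72.1% on 2RHet. Touched clusters were wider, with a median of 2202 bp against 1575 bp in replicate 1 and 2259 bp against 1617 bp in replicate 2. Their scores differed less, at 0.67 against 0.62 and 0.67 against 0.67. On the long arms touched clusters scored 0.74 against 0.50 and 1.10 against 0.46. The libraries shared 41.1% of the Het bases that either covered, from 34.0% on 3RHet to 59.5% on 2LHet, and 62.6% on the long arms.

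Clusters matched between the libraries differed less in score on the Het scaffolds than on the long arms, but agreed less closely in score order and boundaries. Over 107 matched Het pairs the replicate 2 score exceeded that of replicate 1 by a median of 0.04, with medians of 0.71 and 0.68, and was the higher in 64 pairs (59.8%). Over 4195 long-arm pairs the median difference was 0.31, with medians of 1.10 and 0.75, and replicate 2 was higher in 85.2%. Without regard to sign, the median difference was 0.14 over the Het pairs and 0.32 over the long-arm pairs. On chromosome 4 the signed median was -0.03 over 70 pairs, with replicate 2 higher in 45.7%. By scaffold the signed median was 0.04 on 2RHet (39 pairs), 0.00 on 3LHet (39 pairs), 0.11 on 3RHet (18 pairs) and 0.05 on 2LHet (7 pairs). Widths went the same way, as replicate 2 clusters were the wider in 47.7% of Het pairs and 82.9% of long-arm pairs. Boundaries agreed less closely on the Het scaffolds, with a median offset of 331 bp at the start and 384 bp at the end, while long-arm pairs had 114 bp and 112 bp. Scores correlated across the 107 pairs with a Spearman rho of 0.775 and across the long-arm pairs with 0.847. These are descriptions, since clusters of a library share its depth and scaling. With 1 value of each difference for a pair of libraries, no test over samples was possible.

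The highest scores on the Het scaffolds belonged mostly to narrow clusters. Of the 617 Het clusters, 27 (4.38%) were in the top 10.0% of all combined scores. Neither replicate touched 18 of these 27, where the share over all Het clusters was 57.7%, both touched 7, and 19 measured at most 1300 bp, with a median width of 1013 bp. Over all Het clusters support by both libraries rose with the score, from 1.72% of those in the lowest of 4 classes, cut at the quartiles of all combined scores, through 10.4% and 19.1% to 36.0% in the highest class. The share touched by neither was 65.5%, 56.6%, 57.7% and 55.8% in these classes, so most Het clusters of the highest class had no support. On the long arms both replicates touched 10.9%, 33.0%, 85.9% and 96.8%. Of the 741 long-arm clusters in the top 10.0% of all combined scores, neither replicate touched 30 (4.05%), and the median width of the 741 was 2883 bp. The highest combined score of the scaffolds, 3.34, belonged to 3LHet 1303366 to 1304382, which measured 1017 bp and had no cluster in either replicate. The highest score of any cluster that both replicates touched was 2.53, at 3LHet 1394120 to 1399216 (5.10 kb). There replicate 1 scored 2.62 and replicate 2 scored 2.51, and each library covered 97.8% of it. On 2RHet the highest such score was 1.70 at 2895472 to 2903164 (7.69 kb), with 1.79 and 1.85 in the replicates. On 3RHet it was 1.68 at 1704906 to 1711866 (6.96 kb), with 1.53 and 1.85.

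**Figure D5:**
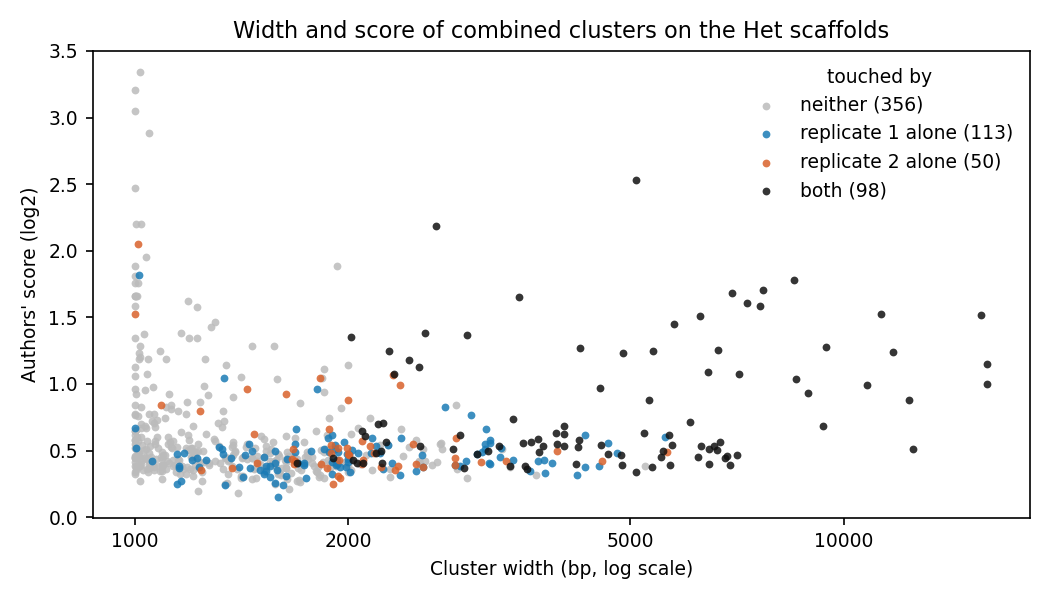
Width in bp on a log axis (x axis) and authors' score, taken as log2 (y axis), of the 617 combined clusters on the Het scaffolds, coloured by the replicates that touch them. The highest score of a cluster touched by both replicates is 2.53. Higher scores belong only to clusters touched by neither replicate, 1001 to 1047 bp wide, while 45 of the 48 clusters wider than 5000 bp are touched by both.

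Exact score ties went with these narrow clusters. A score shared exactly with at least 2 other clusters of the list was found for 81 of 617 combined Het clusters (13.1%), against 6.02% of all 8426 clusters and 4.42% on the long arms. The median width was 1147 bp for the tied Het clusters and 1676 bp for the others, neither replicate touched 63 of the 81 (77.8%), and 17 of the 27 high-scoring clusters were tied. In the replicates the share of tied Het clusters was 7.50% and 3.93%, against 4.20% and 3.54% on the long arms. Clusters of exactly 1001 bp, the smallest combined width, made up 5.35% of combined Het clusters (33 of 617) and 0.732% of those on the long arms. On U both shares were higher in the combined set, at 33.1% tied and 14.2% of exactly 1001 bp. The median combined width there was 1345 bp, against 1609 bp on the Het scaffolds. Wider clusters scored higher on the long arms, with a Spearman rho of 0.757 and 0.767 across the clusters of the replicates and 0.696 in the combined set. On the Het scaffolds rho was 0.393 and 0.549 on 2RHet, 0.362 and 0.543 on 3LHet, and 0.140 and 0.309 on 3RHet. Over the combined Het clusters it was -0.0374, and it was 0.0164 on 2RHet, -0.0662 on 3LHet and -0.0974 on 3RHet. On U rho was -0.00439 and 0.00200 in the replicates and -0.433 in the combined set.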

How the data were processed

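The submitters' processing notes name Bowtie 0.12.7, a read aligner, and coordinates are on FlyBase release 5, per the file headers. The cluster caller, its threshold and any use of the Input libraries are not stated in the labels or headers. The authors deposited 1 list of enriched clusters for each ChIP library and 1 for the replicate set, called the combined set here, not independent of the replicates and without error. Each cluster has a log2 score assigned by the authors. Scores that at least 3 combined clusters share formed 7140 pairs. Of these, 437 were apart by log2 of a ratio of whole numbers up to 20, to within 1e-06. The count was 0 with natural and 10 with base-10 logarithms, so the base was inferred to be 2. Rows marked as depletion were dropped, and none lay on a Het scaffold. Depth is unknown.

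Widths, gaps, covered shares, domains and overlaps (at least 1 bp) were computed in Python 3.11.15 with pandas 2.3.3 and scipy 1.17.1, and the functions were checked on simulated clusters. Clusters were matched by largest overlap, each used once. Regions, lists and alternatives were chosen with earlier results of these data known. Named regions were the widest and highest-scoring supported cluster of each scaffold, the 10 longest domains, the longest empty stretch, and all clusters of XHet and YHet. Dense windows, the next widest and highest-scoring clusters and the exceptions among wide clusters were chosen after their values were seen. No genome sequence of release 5 was used here and the gene table is on release 6, so no sequence or gene is given.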

Additional observations from a re-analysis of the deposited data

How the results depend on the processing

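Alternatives were the authors' combined set, the higher-scoring 50% of each list, the 4 autosomal scaffolds, merging of clusters under 1000 bp apart, other domain gaps, stricter overlap, cluster number in place of bases, and long arms without their proximal 2 Mb. A value was taken to stay within 1 SD between replicates or within its 95% interval. Of 33 alternatives other than leaving out a library, 14 stayed, 18 moved and 1 reversed. In the combined set the covered share relative to the long arms was 0.943, the gap ratio reversed to 0.896, the width ratio was 0.736, clusters in domains made up 52.4% and tied scores 13.1%. The covered shares there were 18.0% on 2LHet, 14.3% on 2RHet, 20.4% on 3LHet, 11.3% on 3RHet, 13.4% on XHet and 2.75% on YHet. In the higher-scoring 50%, which hold fewer clusters by construction, the gap ratio was 3.25, the width ratio 0.946 and the share in domains 3.84%. That share, 31.1% over the replicates, was 14.1% with gaps of at most 2000 bp and 47.8% with gaps of at most 10000 bp. Support by both replicates was 12.6% when each had to cover 50% of the cluster, 10.5% with reciprocal overlap of 50% and 24.1% among clusters at least as wide as the narrowest replicate cluster. It ranged from 24.0% without replicate 1 to 34.2% without replicate 2, since 1 library then suffices. For all other moves the cause was not tested. Leaving out a library kept the covered, gap and width ratios on the same side of 1, with a covered ratio of 0.381 to 0.656, a gap ratio of 1.15 to 2.02 and a width ratio of 0.850 to 0.880. Since 2 values are never farther than 1 SD from the mean, these ratios could show only a change of side. No paired analysis was possible because only ChIP libraries had lists among those analysed here, with no Input list to pair by number. Unknown depth limits what the absence of a cluster can mean, on repeats above all.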

Other observations

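The highest score of the whole replicate 2 list, 3.82, belonged to a cluster on 2RHet at 1686706 to 1688482 (1777 bp), which no replicate 1 cluster touched and of which the combined set covered 45.5%. The highest Het score of replicate 1, 2.65 (rank 19 in its list), was at 3LHet 2380139 to 2381779 (1641 bp), and no replicate 2 cluster touched it. The next in both lists was the same region of 3LHet, at 1394081 to 1399105 with 2.62 in replicate 1 (rank 20) and at 1394175 to 1399157 with 2.51 in replicate 2 (rank 190). These clusters were chosen after their scores were seen.

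Clusters reached close to the ends of the assembled scaffolds in some cases. The first cluster in any list began at position 2 of 3RHet, at position 6 of 2RHet and at position 2072 of 3LHet. Those on 3RHet and 2RHet were clusters of the combined set that neither replicate touched. On XHet the first 49.3 kb and the last 43.0 kb held no cluster in any list.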
